A study of Mus musculus with 49 samples.

Results

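Liver lying next to tumors was compared with liver of control mice in a mouse model of hepatocellular carcinoma. The comparison held 14 livers at 14 weeks of age out of 49 samples in the whole series, and its members were chosen by the sample titles alone: 7 livers titled as adjacent, 1 from each of 7 mice, and 7 livers titled as wild type, each from its own mouse. The mice with adjacent liver had the genotype LAP-tTA-Tre-c-Met on the FVB strain, that is the liver-specific LAP promoter driving a tetracycline-controlled transactivator, and a human MET gene that this transactivator switches on. By the methods of the study, MET livers of this age held at least 2 tumors each. The titles and genotype field give the control mice as FVB wild type, whereas the methods describe a control strain with 2 copies of LAP-tTA, so that carriage of LAP-tTA and expression of MET cannot be told apart in this comparison if the labels are right. From the same 7 MET mice, 14 tumors and 7 livers titled as distant were also measured and are used only to place the adjacent livers. The words adjacent and distant are read from abbreviations in the titles, and the disease field of the adjacent livers reads normal.

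MET is the receptor of hepatocyte growth factor, a signal for the growth and repair of liver cells. Hepatocytes differ along the path of the blood: those around the central vein use β-catenin signalling to run glutamine synthesis and much of drug oxidation, and those around the portal vein make glucose and urea. Liver tumors of mice in which β-catenin is active carry the pericentral program at high level, and the adult liver as a whole makes plasma proteins, lipids and bile acids.

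RNA was measured on a custom Affymetrix array of 43681 probe sets, and levels are given as the log2 of the deposited intensity, on which 0 is the mean of an array and the median of an array lay between -3.32 and -3.20 in adjacent and between -3.37 and -3.22 in control livers. No background level came with the values, and a fold against levels near or below those medians compares brightness rather than amounts of RNA. A gene is read at its brightest probe set, and differences are adjacent minus control with their standard error (SE) from limma, a linear model that pools the spread over probe sets, tested two-sided with p-values adjusted by Benjamini and Hochberg over all probe sets. A gene is said to have risen, fallen or been called at an adjusted p under 0.05. Nothing says how the livers were sampled beyond 1 per mouse, and in bulk RNA fewer cells of a type and less RNA per cell cannot be told apart.

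Of 21517 genes, 1014 (4.71%) rose and 964 (4.48%) fell in adjacent liver. Over probe sets, 1680 rose and 1378 fell, so that 54.9% of the calls were increases, and with the median of every array set equal 911 rose and 2125 fell, 30.0% of the calls being increases. At the level of genes 589 (2.74%) rose and 1439 (6.69%) fell with that scaling. Groups that did not overlap at all were seen in 324 genes (1.51%) with adjacent liver higher and in 339 (1.58%) with adjacent liver lower. The balance of increases and decreases over all genes therefore depended on the scaling, and single genes with small changes are read with that in mind.

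Adjacent liver 4 stood apart from the other 6. In that liver 99 genes lay more than 1 log2 unit above the highest of the others, against 0 to 8 genes in any other adjacent liver, and the tumor mean was above all other 6 adjacent livers for 94 of these 99. Afp, the fetal albumin-like protein that marks liver tumors, stood at 3.15 in adjacent liver 4, against -2.01 to -0.24 in the other adjacent livers and -3.70 to -2.73 in controls, and lay at 3.26 to 5.55 in tumors. Without adjacent liver 4, 768 genes (3.57%) rose and 771 (3.58%) fell, and 2208 of the 3058 probe sets called with all 7 livers were called again in the same direction. Adjacent livers 3, 4, 5 and 6 and control livers 1 and 2 held Xist, the RNA of the inactive X chromosome, at 1.14 to 1.79, and adjacent livers 1, 2 and 7 and control livers 3 to 7 held it at -5.21 to -4.57. Thus 4 of 7 adjacent and 2 of 7 control livers held this RNA, and the labels give no sex. Values given below for livers with Xist RNA include adjacent liver 4 unless it is said to be left out. With a term for Xist in the fit, an alternative chosen after these values were seen, 988 genes (4.59%) rose and 947 (4.4%) fell, and 2504 of the 3058 probe sets were called again in the same direction.

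The pericentral program was low in adjacent liver, and liver 4 was the exception. Of 22 measured genes listed as oncogenic β-catenin targets and pericentral genes, 5 fell and 1 rose with all 7 adjacent livers, at a median difference of -0.35 against 0.03 over all genes. Without adjacent liver 4, 15 fell and 1 rose, at a median of -0.56, and 21 of the 22 differences were below 0. With the Xist term and without that liver 18 fell and 1 rose, where 4.26% of all genes fell and 4.24% rose. The mean of the list, relative to control livers, was -0.61, -0.78, -0.94, 0.96, -0.45, -0.92 and -1.08 in adjacent livers 1 to 7, against -0.06 to 0.05 in control livers. Every adjacent liver but liver 4 lay below every control, and liver 4 lay above every control. It reached only the lowest tumor, 1b at 0.92, and lay below all other tumors, at 1.64 to 2.28.

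**Figure D1:**
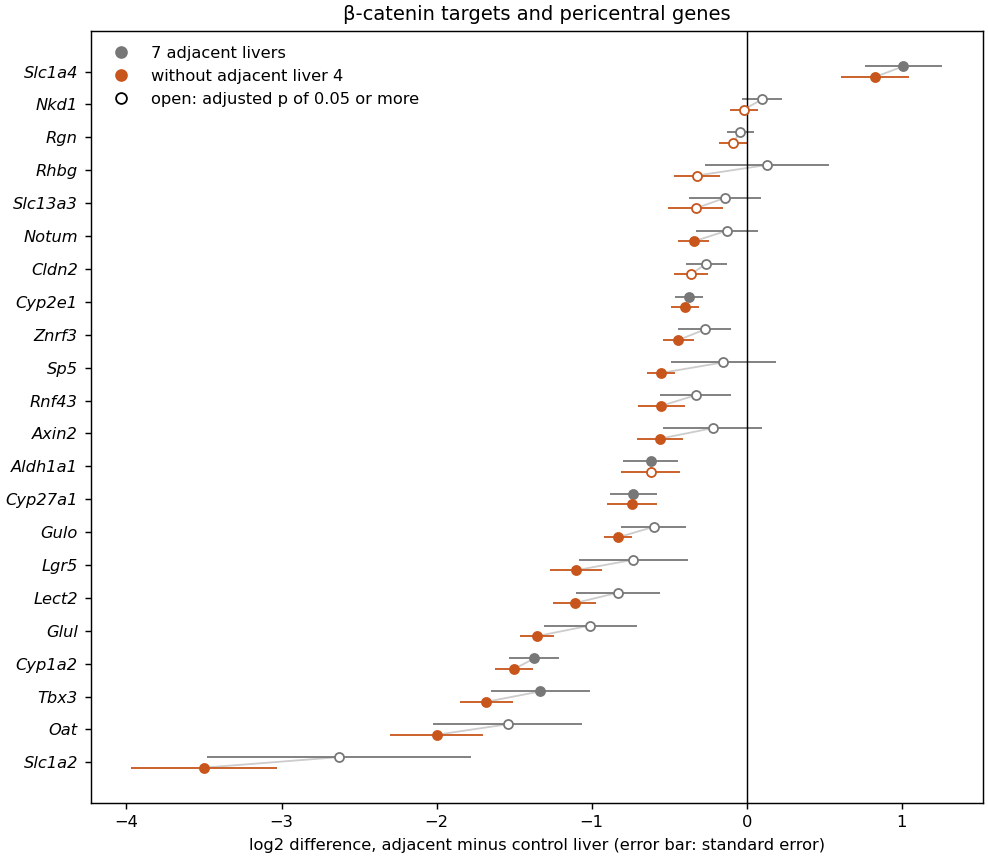
Difference in log2 intensity between adjacent and control liver (x axis, error bars are SE) for the 22 listed β-catenin targets and pericentral genes, with all 7 adjacent livers in grey and without adjacent liver 4 in orange; open points have an adjusted p of 0.05 or more. Leaving out liver 4 moves nearly all genes to the left, with Slc1a2 at -2.63 in grey and -3.50 in orange, and the number that fell is 5 in grey and 15 in orange.

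Glul, the glutamine synthetase confined to hepatocytes next to the central vein, had 3.02, 3.13, 2.86, 5.35, 3.47, 2.57 and 2.83 in adjacent livers 1 to 7, against 4.45, 4.31, 4.39, 4.25, 4.48, 4.12 and 4.30 in control livers 1 to 7. All but liver 4 lay below every control. The difference was -1.01 (SE 0.30, adjusted p = 0.0501) with all 7 and -1.35 (SE 0.11, adjusted p = 2.82e-06) without liver 4. Slc1a2, a glutamate transporter of the same cells, had -1.59, -1.98, -3.16, 3.98, 0.47, -2.44 and -4.08 in adjacent livers 1 to 7, against 1.16 to 1.55 in control livers. It was the widest of the list, and the call again turned on liver 4, with a difference of -2.63 (SE 0.85, adjusted p = 0.0708) with all 7 and -3.50 (SE 0.47, adjusted p = 2.85e-04) without it. Oat, which breaks down ornithine, had 2.35, 2.28, 2.16, 5.56, 3.92, 2.39 and 0.91 in adjacent livers, against 4.09 to 4.73 in control livers, and was 4-fold lower (SE of the log2 difference 0.30, adjusted p = 8.31e-04) without liver 4.

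Regulators and feedback genes of β-catenin signalling behaved alike. Tbx3, a transcription factor of pericentral hepatocytes, was one of the 5 genes that fell with liver 4 included, at -3.43 to -0.57 (median -2.73) in adjacent livers and -1.97 to -1.07 (median -1.10) in control livers, a difference of -1.33 (SE 0.32, adjusted p = 0.0188), or -1.68 (adjusted p = 1.47e-05) without liver 4. Lgr5, the receptor of R-spondins, lay at -3.32 to -2.39 in the 6 other adjacent livers and at -0.03 in liver 4, against -2.23 to -1.08 in control livers, and fell without liver 4 (-1.10, SE 0.17, adjusted p = 8.42e-04). Axin2, Rnf43, Znrf3, Notum and Sp5, feedback genes of the pathway, fell by 0.34 to 0.56 on the log2 scale without liver 4 at adjusted p-values of 0.00225 to 0.0476, and none of them was called with it. Nkd1 had a difference of -0.02 without liver 4 (adjusted p = 0.931) and Rgn of -0.09 (adjusted p = 0.598) and neither was called. Slc1a4, a neutral amino acid transporter, was the 1 member that rose, at -2.40 to -0.31 in adjacent livers and -2.80 to -2.06 in control livers (1.01, SE 0.25, adjusted p = 0.0219), and it rose without liver 4 as well (0.83, adjusted p = 0.0346).

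Among the secreted signals that keep this zone, Rspo3, the R-spondin made by central vein endothelium, lay at -1.49 to -1.08 in adjacent livers and at -0.92 to -0.33 in control livers, so the groups did not overlap, and it fell by 0.57 (SE 0.09, adjusted p = 8.74e-04). Wnt2, a Wnt ligand of endothelial cells, lay at -3.33 to -2.33 in adjacent and -2.64 to -1.82 in control livers and fell by 0.65 (SE 0.15, adjusted p = 0.013), close to the median of the arrays. Both fell without liver 4 also (adjusted p = 0.00237 for Rspo3 and 0.0291 for Wnt2). Liver 4 was at -1.36 for Rspo3 and at -3.24 for Wnt2, inside the range of the other adjacent livers for both, unlike for the pericentral genes. Wnt9b, another Wnt ligand, had a difference of 0.10 (SE 0.08, adjusted p = 0.504), or 0.11 (adjusted p = 0.489) without liver 4, and was not called. Among 24 markers of sinusoidal and vascular endothelium that include these, 2 rose and 3 fell, where 4.71% of all genes rose and 4.48% fell. The summed intensity of the list was 36.3 to 42.3 in adjacent and 35.1 to 45.3 in control livers.

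The tumors of the same mice lay on the other side of the controls. In the test paired by mouse, with both tumors of a mouse averaged, 20 of the 22 members were higher in tumors than in adjacent liver and 0 lower, where 16.3% of all genes were higher and 21.6% lower. Glul lay at 5.56 to 6.04 in tumors and Slc1a2 at 3.70 to 5.35, so that adjacent liver without liver 4 was below control liver while tumors were above it. In distant liver, 16 of the 22 fell against the same control livers, which both comparisons share, where 3.53% of all genes fell and 3.3% rose.

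**Figure D2:**
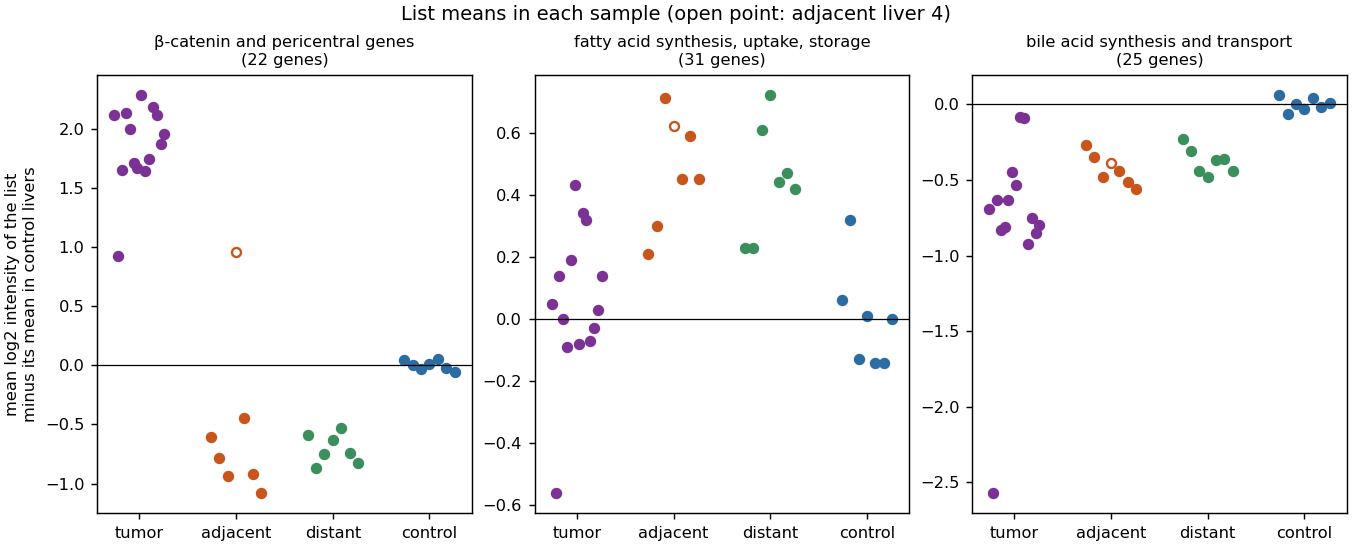
Mean log2 intensity of 3 gene lists in each sample, relative to the mean of the list in control livers (y axis), for tumors, adjacent, distant and control livers, 1 point per sample; the open point is adjacent liver 4. In the left panel 6 adjacent livers lie between -1.08 and -0.45 and liver 4 at 0.96, next to the lowest tumor at 0.92 and below all other tumors, at 1.64 and above. In the right panel all 7 adjacent livers lie below all control livers.

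Promoters are shown because the members moved together. Of the 22 genes, 15 matched an entry in the table of RefSeq promoters (assembly GRCm38.p6, 300 bases each), with 17 promoters. The motif CTTTGAT, the core letters bound by TCF and LEF factors, was searched on both strands as CTTTGAT or ATCAAAG, which do not overlap each other, and was found in 3 of the 17 promoters (17.6%), those of Slc1a2, Sp5 and Lect2. Of all 32851 promoters of that length, 3.73% held it. These letters are a description of the window and not a binding site. The 3 promoters follow in the direction of the gene with the motif in capitals, from chr2:102706188-102706487 on the plus strand for Slc1a2, from chr2:70474673-70474972 on the plus strand for Sp5 and from chr13:56548489-56548788 on the minus strand for Lect2.
Slc1a2: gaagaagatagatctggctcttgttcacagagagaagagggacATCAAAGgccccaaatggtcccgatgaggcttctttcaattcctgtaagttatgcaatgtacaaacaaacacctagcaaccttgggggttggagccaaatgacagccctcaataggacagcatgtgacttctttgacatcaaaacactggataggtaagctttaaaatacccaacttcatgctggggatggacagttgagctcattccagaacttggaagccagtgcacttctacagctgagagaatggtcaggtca
Sp5: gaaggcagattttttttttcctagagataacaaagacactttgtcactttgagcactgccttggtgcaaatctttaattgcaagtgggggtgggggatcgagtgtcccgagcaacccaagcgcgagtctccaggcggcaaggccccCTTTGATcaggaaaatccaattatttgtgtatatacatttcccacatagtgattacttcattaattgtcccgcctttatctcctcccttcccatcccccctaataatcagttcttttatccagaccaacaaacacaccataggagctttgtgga
Lect2: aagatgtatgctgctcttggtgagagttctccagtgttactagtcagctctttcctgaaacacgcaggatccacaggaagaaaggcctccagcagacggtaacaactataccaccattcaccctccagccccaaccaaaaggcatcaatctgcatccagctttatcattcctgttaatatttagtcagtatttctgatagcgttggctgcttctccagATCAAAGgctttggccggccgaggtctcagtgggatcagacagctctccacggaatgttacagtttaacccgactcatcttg
Slc1a2 and Sp5 are described above, and Lect2, a secreted protein of hepatocytes, lay at 2.56 to 3.53 in the other 6 adjacent livers and 4.95 in liver 4, against 3.86 to 4.50 in control livers, and fell without liver 4 (-1.11, SE 0.14, adjusted p = 1.83e-04).

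Genes of fatty acid synthesis, uptake and storage were higher in adjacent liver. Of 31 measured, 15 rose and 1 fell, at a median difference of 0.49, where 4.71% of all genes rose and 4.48% fell. Without liver 4, 13 rose and 1 fell, so that here liver 4 mattered little. With the Xist term 15 rose and 2 fell, and with array medians set equal 13 rose and 3 fell. Lpl, the lipoprotein lipase that frees fatty acids from circulating fat, lay at 2.16 to 3.99 (median 3.36) in adjacent and 0.76 to 1.80 (median 1.34) in control livers, without overlap, and was 4.01-fold higher (SE of the log2 difference 0.23, adjusted p = 4.21e-05). Adult hepatocytes normally make little of it. Scd1, the desaturase that makes oleic acid, was bright in both groups, at 6.22 to 6.44 in adjacent and 5.64 to 6.03 in control livers, again without overlap (0.51, SE 0.07, adjusted p = 3.68e-04). Pnpla3, a lipase of lipid droplets that is induced by feeding, rose by 3.15 (SE 0.54, adjusted p = 0.00176) with overlapping groups, at -0.57 to 2.61 (median 1.83) in adjacent and -3.13 to 0.49 (median -2.06) in control livers.

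Other enzymes of the pathway rose as well. Fasn, the fatty acid synthase, lay at 3.68 to 4.55 (median 4.30) in adjacent and 2.73 to 4.18 (median 3.29) in control livers, a difference of 0.93 (adjusted p = 0.00289). Acaca, Acacb and Acly, which supply its substrates, rose by 0.69, 0.77 and 0.56, and Fads2, a desaturase of long chains, by 0.67. Cd36, a fatty acid transporter, rose by 1.31 (SE 0.29, adjusted p = 0.00979) and Elovl6 by 1.09 (adjusted p = 0.0476, or 0.0881 without liver 4). The regulators Srebf1 and Mlxipl had differences of 0.52 (adjusted p = 0.0747) and 0.31 (adjusted p = 0.0819) and were not called. Proteins that coat or fill lipid droplets were not called either, with Plin2 at -0.28 (adjusted p = 0.0639) and Cidec at -0.13 (adjusted p = 0.492). G0s2, an inhibitor of fat breakdown, was the 1 member that fell (-0.78, SE 0.17, adjusted p = 0.00975). In the paired test 4 of the 31 were higher in tumors than in adjacent liver and 16 lower, where 16.3% of all genes were higher and 21.6% lower.

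Outside that list, Apoa4, an apolipoprotein of the intestine and of fat-loaded liver, lay at 4.84 to 5.96 (median 5.62) in adjacent and 2.93 to 3.78 (median 3.35) in control livers and was 4.42-fold higher (SE 0.19, adjusted p = 2.06e-06). Scd2, the desaturase of fetal liver and brain, rose by 1.81 (SE 0.34, adjusted p = 0.00371) and lay at 2.56 to 4.21 in tumors, above adjacent livers at -0.59 to 1.96 and control livers at -1.37 to -0.85. Of 30 genes of fatty acid oxidation and ketogenesis 1 rose and 9 fell, where 4.71% of all genes rose and 4.48% fell. The 9 were mostly small, such as Cpt2 (-0.48) and Ehhadh (-0.45), and Acot1 had the lowest value (-1.32, SE 0.33, adjusted p = 0.0233). Within the livers that held Xist RNA 0 of the 30 rose and 8 fell, and within those without it 4 rose and 0 fell, where 2.9% and 1.58% of all genes rose and 2.26% and 1.55% fell, and the interaction was called for 1 of the 30. None of 20 genes of cholesterol synthesis was called in either direction.

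**Figure D3:**
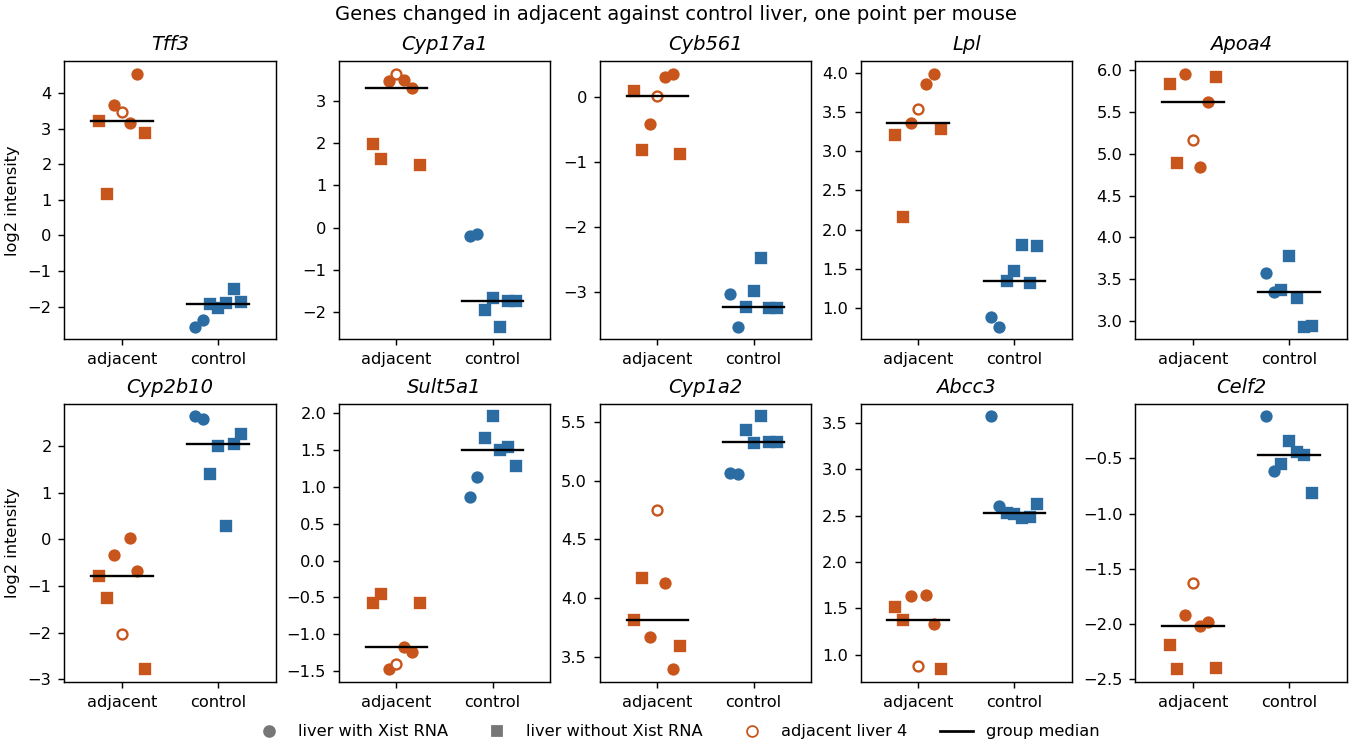
Log2 intensity (y axis) of 10 genes in each adjacent liver (left in each panel) and control liver (right), 1 point per mouse, with circles for livers with and squares for livers without Xist RNA, an open symbol for adjacent liver 4 and a line at the group median. For all 10 genes, 5 higher and 5 lower in adjacent liver, the adjacent values do not overlap the control values, and liver 4 is the adjacent liver nearest to the controls for Cyp1a2 and Celf2.

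Plasma proteins of the complement, coagulation and acute phase list rose as well, mostly by small amounts. Of 53 measured, 20 rose and 2 fell, at a median of 0.26, with 12 higher without overlap and 0 lower without overlap. Over all genes 4.71% rose and 4.48% fell, and 1.51% were higher and 1.58% lower without overlap. Without liver 4, 17 rose and 1 fell, and with array medians set equal 15 rose and 5 fell. Lbp, which carries bacterial lipopolysaccharide, lay at 3.32 to 4.11 (median 3.89) in adjacent and 2.27 to 3.13 (median 2.35) in control livers and was 2.52-fold higher (SE 0.13, adjusted p = 8.68e-06). Apcs, serum amyloid P and an acute phase protein in mice, lay at 4.45 to 5.70 (median 5.53) in adjacent and 3.75 to 4.47 (median 4.04) in control livers (1.32, SE 0.17, adjusted p = 1.19e-04). Those were the 2 clearest changes of the list. Fgb, 1 of the 3 fibrinogen chains, was 0.31 higher (SE 0.05, adjusted p = 0.00177), and Fga and Fgg were each 0.22 higher. Cfi, C4b, C2, Cfb and C3 of the complement system rose by 0.27 to 0.47.

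Single inducible acute phase genes went different ways. Saa1, which can rise steeply in inflammation, had 5.81, 1.82, 2.85, 3.12, 5.40, 3.18 and 1.06 in adjacent livers 1 to 7, against 1.93 to 3.17 in control livers (0.66, SE 0.56, adjusted p = 0.533). Livers 1 and 5 were high and liver 7 low, and the mean of the whole list relative to controls was also highest in livers 1 (0.72) and 5 (0.54) and lowest in liver 7 (-0.11). Saa3 fell (-0.77, adjusted p = 0.0337, or 0.0615 without liver 4), and Lcn2, an iron-carrier protein of inflamed epithelium, rose with overlapping groups, at -2.03 to 3.53 in adjacent and -1.98 to -0.70 in control livers (2.76, SE 0.75, adjusted p = 0.0335, or 0.0629 without liver 4). Mbl1, a lectin of complement activation, fell by 0.53 (adjusted p = 0.0159). In the paired test 3 of the 53 were higher in tumors than in adjacent liver and 35 lower, where 16.3% of all genes were higher and 21.6% lower.

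Genes of bile acid synthesis and transport were lower. Of 25 measured 10 fell and 1 rose, at a median of -0.31, where 4.48% of all genes fell and 4.71% rose. The same counts held for the list without liver 4 and with the Xist term. The list mean relative to controls was -0.56 to -0.27 in adjacent livers and -0.06 to 0.06 in control livers, with no overlap and with liver 4 at -0.39. Abcc3, an exporter of bile acids to the blood, lay at 0.84 to 1.64 (median 1.37) in adjacent and 2.47 to 3.57 (median 2.53) in control livers and was 2.59-fold lower (SE 0.17, adjusted p = 8.20e-05). Hsd3b7, an enzyme shared by the routes from cholesterol to bile acids, lay at 3.87 to 4.53 in adjacent and 4.56 to 5.13 in control livers (-0.80, SE 0.12, adjusted p = 4.11e-04). Nr0b2, the receptor SHP that represses bile acid synthesis, lay at -0.08 to 1.65 in adjacent and 1.84 to 2.81 in control livers (-1.23, SE 0.21, adjusted p = 0.00195), its lowest value being that of liver 4.

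Cyp27a1 and Cyp7b1 of the alternative route fell, by 0.73 (SE 0.15, adjusted p = 0.00678) and by 3.19 (SE 0.80, adjusted p = 0.0224). Cyp7a1, the rate-limiting enzyme of the classical route, lay at -0.82 to 1.92 in adjacent and -0.99 to 1.47 in control livers and was not called (0.54, SE 0.38, adjusted p = 0.441). Abcb4 and Abcg8, which move phospholipid and cholesterol into bile, fell by 0.55 (adjusted p = 8.50e-04) and 0.75 (adjusted p = 4.23e-04), and their partner in bile salt export, Abcb11, was not called (-0.15, adjusted p = 0.219). Nr1h4, the bile acid receptor FXR, fell by 0.34 (adjusted p = 0.0296, or 0.0583 without liver 4). Klb, the co-receptor for the gut hormone that limits the pathway, was the 1 member that rose (0.48, SE 0.12, adjusted p = 0.0199, or 0.0369 without liver 4).

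Drug-oxidizing enzymes showed larger single changes in both directions. Of 44 cytochrome P450, Fmo and Ces genes 4 rose and 12 fell with all 7 livers, at a median of -0.08, where 4.71% of all genes rose and 4.48% fell. Without liver 4, 3 rose and 12 fell. Cyp2b10, the classical target of the receptor CAR, lay at -2.79 to 0.03 (median -0.78) in adjacent and 0.29 to 2.63 (median 2.04) in control livers and was 8.03-fold lower (SE 0.40, adjusted p = 1.99e-04). Nr1i3, which encodes CAR, lay at 0.74 to 1.77 (median 1.13) in adjacent and at 1.91 and above (median 2.26) in control livers and was 2.13-fold lower (SE 0.16, adjusted p = 5.04e-04). The receptor and its target were thus both low in every adjacent liver. Cyp1a2, a pericentral P450, lay at 3.39 to 4.75 (median 3.81) in adjacent and 5.06 to 5.55 (median 5.33) in control livers (-1.37, SE 0.16, adjusted p = 5.40e-05), and its highest adjacent value was that of liver 4. Cyp2c54 fell by 1.14 (SE 0.16, adjusted p = 2.26e-04), the carboxylesterase Ces1g by 1.39 (SE 0.25, adjusted p = 0.00238), and Cyp2e1, bright in all livers, by 0.37 (SE 0.09, adjusted p = 0.0154). Cyp3a11 was not called (-0.16, adjusted p = 0.148).

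Of 38 conjugation, glutathione and NRF2 target genes 1 rose and 9 fell, at a median of -0.12, where 4.71% of all genes rose and 4.48% fell. Without liver 4, 1 rose and 8 fell. Sult5a1, a sulfotransferase, lay at -1.48 to -0.46 (median -1.17) in adjacent and 0.87 to 1.96 (median 1.51) in control livers and was 5.32-fold lower (SE 0.18, adjusted p = 3.61e-07). Ugt2b1, a glucuronosyltransferase, lay at 2.93 to 4.03 in adjacent and 3.84 to 5.31 in control livers (-1.35, SE 0.22, adjusted p = 0.00132), and Gclc, which limits glutathione synthesis, fell by 0.78 (SE 0.16, adjusted p = 0.00751). Gstm5, a glutathione transferase, was the 1 member that rose, at 1.65 to 2.16 in adjacent and 0.47 to 0.79 in control livers (1.33, SE 0.09, adjusted p = 8.19e-08).

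The largest increases among genes whose groups did not overlap were in Tff3, Ifi27l2b, Prtn3 and Cyp17a1. Tff3, a small mucosal repair protein found in bile ducts and in liver tumors of mice, had a median of 3.21 (1.16 to 4.55) in adjacent and -1.94 (-2.57 to -1.51) in control livers and was 36.6-fold higher (log2 5.19, SE 0.34, adjusted p = 9.35e-08). In tumors it lay at -2.67 to 2.34, and the paired difference of tumors from adjacent liver was -2.96 (adjusted p = 5.33e-04), so that Tff3 was highest outside the tumors. Cyp17a1, which makes androgen precursors, had a median of 3.31 (1.49 to 3.64) in adjacent and -1.74 (-2.35 to -0.16) in control livers and was 17.4-fold higher (SE 0.41, adjusted p = 7.68e-06). It too was lower in tumors than in adjacent liver (-3.01, adjusted p = 1.57e-05), and it also divided the LAP-tTA from the TRE-met livers described last. Ifi27l2b lay at -0.71 to 3.11 in adjacent and -4.18 to -2.24 in control livers (4.82, SE 0.47, adjusted p = 6.83e-06), and was higher still in tumors (2.26, adjusted p = 0.00255).

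Prtn3, a protease of neutrophil granules, lay at -1.89 to 2.38 (median 1.60) in adjacent and -3.98 to -2.92 (median -3.62) in control livers (4.30, SE 0.54, adjusted p = 1.04e-04). Of 26 lymphocyte and neutrophil markers 4 rose and 0 fell, where 4.71% of all genes rose and 4.48% fell. Their summed intensity was 4.16 to 5.22 in adjacent and 3.59 to 4.21 in control livers, and the part of other cells in the Prtn3 values was not tested. S100a8, of neutrophils and monocytes, lay at -1.77 to -0.34 in adjacent and -2.33 to -2.14 in control livers (1.08, SE 0.17, adjusted p = 8.30e-04), without overlap. Other neutrophil genes of the list, Mpo, Camp, Ngp, Cxcr2, Csf3r, Retnlg and Ltf, had differences of -0.07 to 0.26 and were not called. Cyb561, a membrane cytochrome that carries electrons from ascorbate, lay at -0.87 to 0.36 in adjacent and -3.53 to -2.47 in control livers (2.92, SE 0.20, adjusted p = 9.75e-08). Osbpl3, an oxysterol-binding protein, rose by 2.61 (SE 0.27, adjusted p = 1.19e-05), Itih5 by 2.23 (SE 0.32), Pnpla5 by 2.32 (SE 0.39) and Esm1, a product of endothelial cells, by 2.17 (SE 0.42, adjusted p = 0.00429), its control values lying below the array medians. Pck1, the enzyme that commits carbon to glucose, lay at 4.30 to 4.79 in adjacent and 3.02 to 3.86 in control livers (1.15, SE 0.12, adjusted p = 8.51e-06), and at -4.27 to 2.86 in tumors.

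Among the decreases, Gna14, a G protein subunit, lay at -4.05 to -3.55 (median -3.89) in all adjacent livers, below the median of the arrays, against -2.59 to -0.26 (median -1.24) in control livers (-2.49, SE 0.25, adjusted p = 8.51e-06). Lrtm1 lay at -3.30 to -1.73 in adjacent and -0.82 to 0.21 in control livers (-2.27, SE 0.20, adjusted p = 2.56e-06). Npr2, a receptor of natriuretic peptides, lay at -1.90 to -0.68 in adjacent and 0.30 to 1.12 in control livers (-2.09, SE 0.17, adjusted p = 9.28e-07). All of these separated the groups completely. Celf2, an RNA-binding protein, lay at -2.41 to -1.63 in adjacent and -0.81 to -0.12 in control livers (-1.60, SE 0.12, adjusted p = 3.37e-07), and Etnppl, which breaks down phosphoethanolamine, at -0.81 to 2.19 in adjacent and 2.23 to 2.96 in control livers (-1.94, SE 0.31, adjusted p = 0.00101). Smad9, Fitm1, Rmdn2, Slc15a2, Ly6a and Esrrg fell by 1.41 to 1.65 without overlap. Lrat, the enzyme with which stellate cells store vitamin A, lay at -1.04 to 0.18 in adjacent and 0.18 to 0.78 in control livers (-1.04, SE 0.15, adjusted p = 4.61e-04), and was lower again in tumors (-1.67, adjusted p = 4.37e-05).

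Some markers of hepatocellular carcinoma and fetal liver were raised in adjacent liver, and most of the list was higher in tumors than there. Of 27 measured 9 rose and 0 fell, where 4.71% of all genes rose and 4.48% fell, and 7 rose and 0 fell without liver 4. Their summed intensity was 8.58 to 55.8 in adjacent livers, the highest being liver 4 and the next 49.7, against 4.69 to 6.07 in control livers and 107 to 194 in tumors. By this sum, of which Tff3 is a part, every adjacent liver lay above every control and below every tumor. In the paired test 18 of the 27 were higher in tumors than in adjacent liver and 6 lower, Tff3 and Igf2 among the lower. Of all genes 16.3% were higher and 21.6% lower. Afp rose by 2.78 (SE 0.55, adjusted p = 0.00516) with all 7 livers and by 2.17 (SE 0.25, adjusted p = 4.79e-05) without liver 4. Igf2, the fetal growth factor, lay at -1.27 to 1.80 (median 0.26) in adjacent and -2.58 to -1.70 (median -1.98) in control livers (2.34, SE 0.33, adjusted p = 2.91e-04), and in tumors it lay at -2.25 to 0.75, lower than in adjacent liver (-1.57, adjusted p = 6.07e-04). Golm1, a Golgi protein raised in liver disease, rose by 1.53 (SE 0.25, adjusted p = 0.00115). Akr1c18, a steroid reductase, lay at -1.71 to 3.21 in adjacent and -3.17 to -2.12 in control livers (2.93, SE 0.60, adjusted p = 0.00634). Gpc3, an oncofetal proteoglycan, lay at -3.31 to 0.44 in adjacent and -3.59 to -3.06 in control livers and was not called (1.16, SE 0.44, adjusted p = 0.128).

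Met, the mouse counterpart of the human oncogene, averaged 2.20 ± 0.06 in adjacent and 2.21 ± 0.13 in control livers at its brighter probe set (SD, n = 7 each; difference -0.00, two-sided exact permutation test, p = 0.967, adjusted over 2 probe sets 0.967). At the other probe set it averaged 0.58 ± 0.16 in adjacent and 0.31 ± 0.11 in control livers (SD, n = 7 each; difference 0.27, exact permutation test, p = 0.00524, adjusted p = 0.0105). Whether either probe set reads the human transcript is not known, so neither value checks the labels. Of 34 genes of MET, its ligand, partners and immediate targets 4 rose and 3 fell, at a median of 0.04, where 4.71% of all genes rose and 4.48% fell. Ccnd1, cyclin D1, which drives entry into the cell cycle, lay at -0.73 to 1.82 (median 1.29) in adjacent and 1.67 to 3.34 (median 2.36) in control livers and fell by 1.70 (SE 0.37, adjusted p = 0.00978). Egr1, an early response gene, fell by 1.51 (SE 0.32, adjusted p = 0.00798). Hgfac, the protease that activates hepatocyte growth factor, rose by 0.73 (SE 0.11, adjusted p = 8.30e-04).

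Of 43 cell cycle genes 6 rose and 1 fell in adjacent liver, where 4.71% of all genes rose and 4.48% fell. The summed intensity of the list was 14.5 to 22.2 in adjacent and 16.2 to 27 in control livers, against 28.8 to 67.4 in tumors. Mki67, a marker of cycling cells, lay at -3.66 to -1.15 in adjacent and -3.86 to -3.31 in control livers (1.10, SE 0.27, adjusted p = 0.0192), its highest value being that of liver 4, and it rose without liver 4 too (0.88, adjusted p = 0.0201). Cdkn1a, the inhibitor p21, rose by 1.15 (SE 0.27, adjusted p = 0.0151). In the paired test 36 of the 43 were higher in tumors than in adjacent liver and 1 lower, where 16.3% of all genes were higher and 21.6% lower.

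Genes that differ between the sexes of mouse liver moved with the Xist classes. Over all genes 4.71% rose and 4.48% fell, and with the Xist term 4.59% rose and 4.4% fell. Of 17 male-biased genes 0 rose and 5 fell, at a median of -1.48, and with the Xist term the median was -0.44 with 0 rising and 7 falling. Of 23 female-biased genes 2 rose and 0 fell, at a median of 1.04, and with the Xist term the median was 0.11 with 4 rising and 4 falling. The median shift of both lists was thus smaller with the term than without it. Cyp4a12a, which is made in male liver, lay at -3.81 to 5.16 in adjacent and -4.18 to 5.20 in control livers, and its difference of -2.43 (adjusted p = 0.502) became 0.02 (SE 0.22, adjusted p = 0.976) with the term. Cyp17a1, Cyp7b1 and Gna14 kept their change within both classes. Cyp17a1 rose by 3.67 (SE 0.12) among livers with Xist RNA and by 3.60 (SE 0.16) among those without, Cyp7b1 fell by 2.10 (SE 0.21) and 2.27 (SE 0.24), and Gna14 fell by 1.59 (SE 0.20) and 2.86 (SE 0.22). Ugt2b38, a glucuronosyltransferase made mainly in males, had -0.69 (SE 0.17, adjusted p = 0.0512) with Xist RNA and fell by 3.59 (SE 0.42, adjusted p = 2.09e-04) without it.

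**Figure D4:**
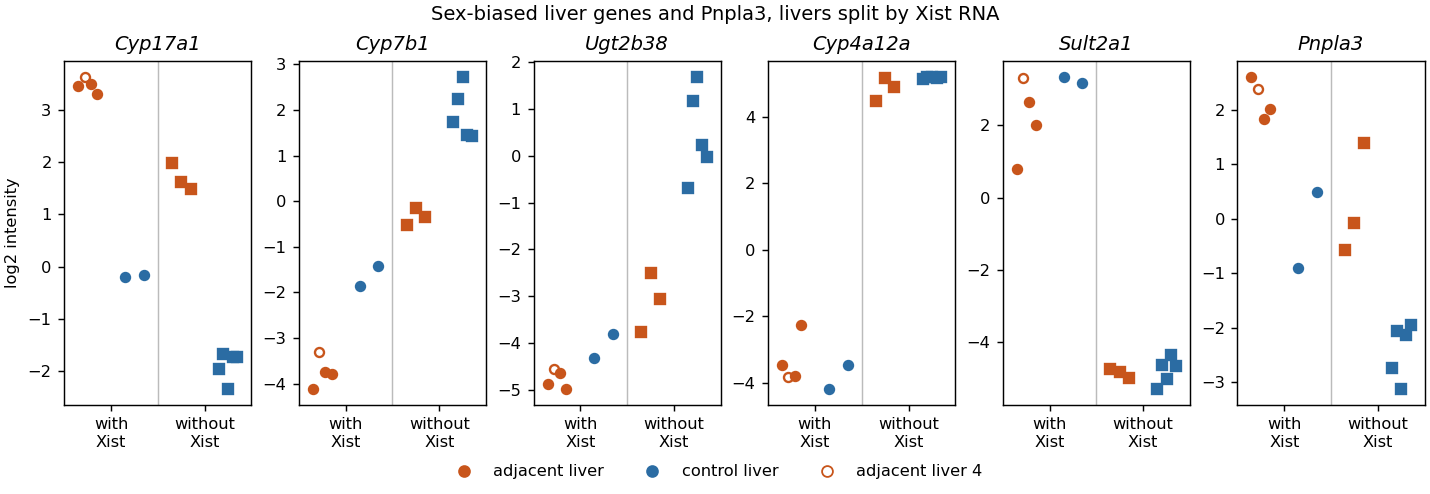
Log2 intensity (y axis) of 6 genes in livers with and livers without Xist RNA, adjacent livers beside control livers in each class, 1 point per liver, with adjacent liver 4 open. Cyp17a1, Cyp7b1 and Pnpla3 differ between adjacent and control liver in both classes, whereas Cyp4a12a and Sult2a1 differ mainly between the classes.

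The clock gene Arntl divided the same way, at -3.34 to -2.55 in livers with Xist RNA and -1.48 to -0.03 in livers without it, and its part in the differences between the classes was not tested. The adjacent minus control difference of Arntl was -0.80 (adjusted p = 0.461), and -0.10 (adjusted p = 0.824) with the Xist term. Nr1d1, a clock repressor, fell in both fits (-1.06, SE 0.21, adjusted p = 0.00493, and -0.95, adjusted p = 0.00605, with the term).

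Several lists of markers of other cells held more called members than all genes did (4.71% higher, 4.48% lower), and their part in the differences was not tested. Of 31 Kupffer cell and macrophage markers 6 rose and 2 fell, with a summed intensity of 52.2 to 103 in adjacent and 54.6 to 80.7 in control livers. Within the livers with Xist RNA 11 rose and 1 fell, where 2.9% of all genes rose and 2.26% fell, and within those without it 0 rose and 2 fell, where 1.58% rose and 1.55% fell. The interaction was called higher with Xist RNA for 2 of the 31 and lower for 0, against 0.158% and 0.0976% of all genes. Cd14, the lipopolysaccharide co-receptor, rose (1.32, SE 0.30, adjusted p = 0.0138), and Spp1, osteopontin of macrophages and bile ducts, fell without overlap, at -0.63 to 0.73 in adjacent and 0.91 to 1.24 in control livers (-0.82, SE 0.16, adjusted p = 0.00503). Lyve1, a receptor of sinusoidal endothelium, rose without overlap, at -0.94 to 0.59 in adjacent and -1.55 to -1.04 in control livers (1.12, SE 0.21, adjusted p = 0.00322). Of 39 stellate cell, fibroblast and matrix markers 5 rose and 4 fell, of 28 cholangiocyte and progenitor markers 3 rose and 1 fell, and of 11 erythroid markers 4 rose and 0 fell, at a median of 0.31. Of 33 interferon response genes 4 rose and 1 fell, with 10 rising and 0 falling among livers with Xist RNA and 0 rising and 5 falling among those without, and the interaction was called higher with Xist RNA for 5 and lower for 0. None of 21 pancreas markers was called, and their summed intensity was 5.21 to 11.5 in adjacent and 5.22 to 93.7 in control livers, the highest being control liver 5.

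Genes of hepatocyte identity were called in both directions. Of 30 measured 4 rose and 3 fell, at a median difference of 0.03, the median of all genes. The counts of this paragraph stand beside 4.71% of all genes that rose and 4.48% that fell. Of 17 periportal genes 4 rose and 2 fell in adjacent liver. In the paired test 17 of 17 were lower in tumors than in adjacent liver, where 21.6% of all genes were lower. Of 40 genes of amino acid and urea cycle metabolism 3 rose and 7 fell, including Prodh, which breaks down proline (-0.90, SE 0.18, adjusted p = 0.00613). Of 46 ribosomal protein genes 7 rose and 0 fell, by 0.22 to 0.44, and with array medians set equal 2 rose. Of 55 oxidative phosphorylation genes 1 rose and 5 fell, and with array medians set equal, where 6.69% of all genes fell, 11 fell. None of 28 stress genes of the unfolded protein response was called.

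**Figure D5:**
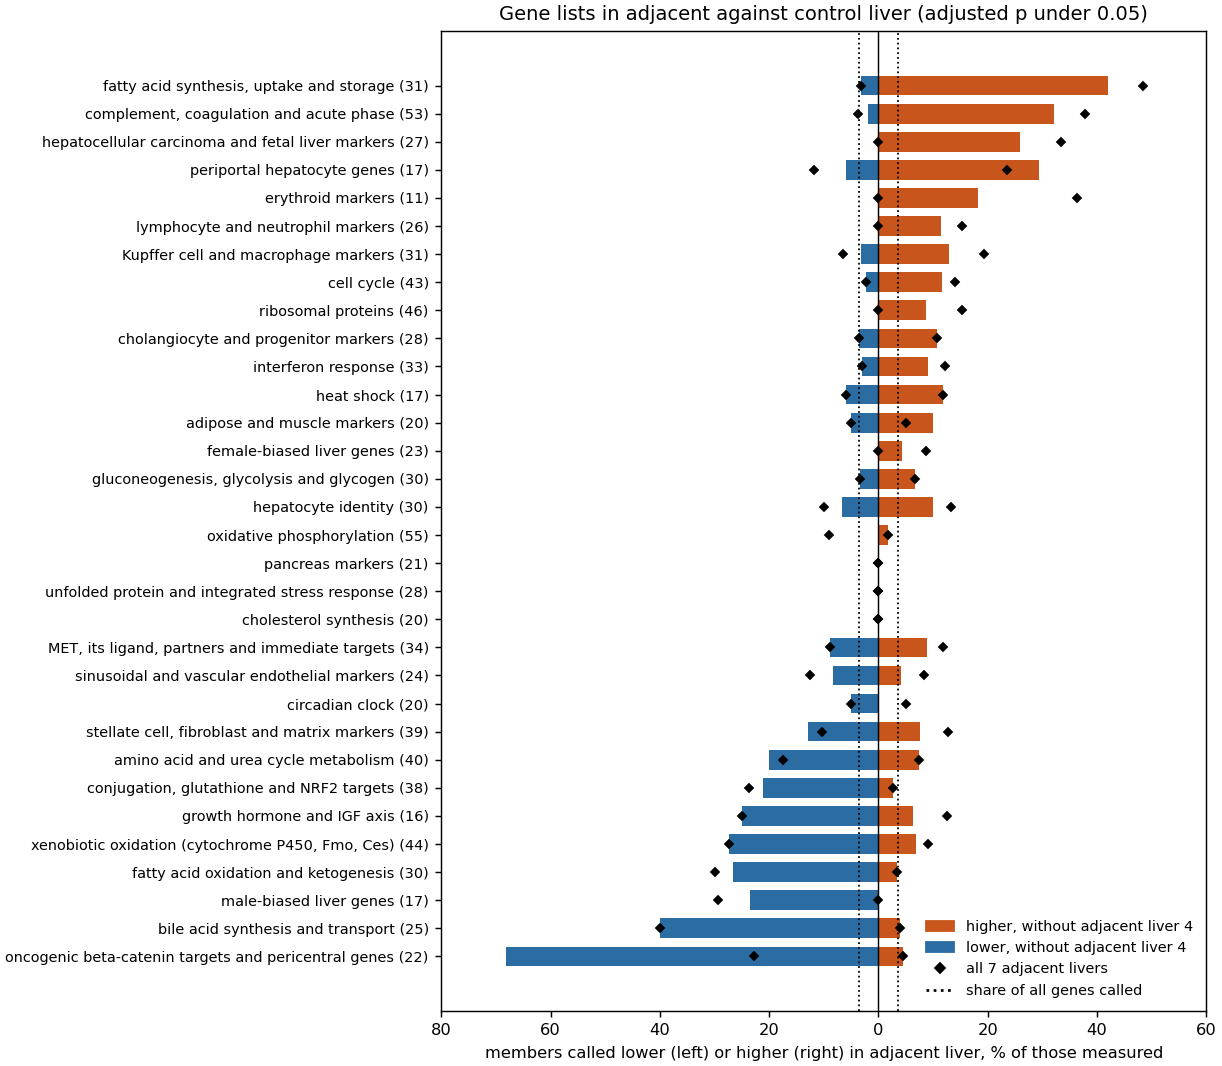
Share of the measured members of each gene list (number measured in parentheses) called lower, to the left, or higher, to the right, in adjacent against control liver at an adjusted p under 0.05. Bars leave out adjacent liver 4, diamonds use all 7 adjacent livers, and dotted lines mark the share of all genes called without liver 4, 3.57% higher and 3.58% lower; the β-catenin and pericentral list shows the widest gap between bar and diamond.

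Adjacent liver was also set against distant liver of the same mice. In the test paired by mouse 0 of 21517 genes (0%) were called, and 0 probe sets. At an unadjusted p under 0.05, 4295 probe sets were higher and 1529 lower in adjacent than in distant liver, and with array medians set equal 1175 were higher and 4516 lower, so that no direction over all genes can be given. With the medians set equal 2 probe sets were called. Distant liver against the same control livers gave 2212 called probe sets. Tff3 lay at 1.16 to 4.55 in adjacent and 1.32 to 3.77 in distant livers, and Cyp17a1 at 1.49 to 3.64 in adjacent and 1.56 to 4.16 in distant livers. A difference that misses the threshold does not show that both tissues are alike.

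Some of the strongest calls also divided the younger livers of the series, 7 titled LAP-tTA and 7 titled TRE-met. LAP-tTA livers were 7 and TRE-met livers 6 weeks old by their titles (1 TRE-met liver has 14 weeks in its age field). Age and group thus cannot be told apart between them. Xist lay at -5.28 to -4.69 over both groups. By their labels the former carried LAP-tTA and the latter Tre-c-Met. The methods of the study instead describe a TRE-MET strain with both transgenes, sampled at 6 or 7 weeks, and a LAP-tTA strain as its control. Which description holds for these livers was not tested. Of the 15 genes with the largest increases in adjacent liver, LAP-tTA livers lay above TRE-met livers without overlap for 6 and below for 0, where 2.68% of all genes lay above and 2% below. Those 6 were Ifi27l2b, Cyp17a1, Itih5, Trim12a, Apoa4 and Xdh. Prtn3 and Cyb561, also among the 15, split the TRE-met livers instead. Prtn3 lay at 3.49 to 3.86 in TRE-met livers 1, 2, 3 and 5 and at -3.65 to -3.01 in 4, 6 and 7. In LAP-tTA livers it lay at -3.64 to -2.75. Cyb561 lay at 0.02 to 0.40 and -3.25 to -2.38 in the same TRE-met livers and at -1.06 to -0.51 in LAP-tTA livers. The reason was not tested. Of the 15 largest decreases, LAP-tTA livers lay below without overlap for 5, Gna14, Sult5a1, Lrtm1, Gm6614 and Slc15a2, and above for 1, Cyp2b10. Xdh, the xanthine dehydrogenase, lay at 0.58 to 1.31 in adjacent livers and -1.52 to -0.86 in control livers (2.14, SE 0.12, adjusted p = 2.58e-08), and at 1.89 to 2.23 in LAP-tTA and -2.17 to -1.09 in TRE-met livers. Trim12a rose by 2.22 (SE 0.13, adjusted p = 3.14e-08), at -3.27 to -2.65 in adjacent and -5.69 to -4.80 in control livers, and lay at -2.74 to -1.54 in LAP-tTA and -5.27 to -4.99 in TRE-met livers. For both genes the range of control livers overlapped that of TRE-met livers, and adjacent livers lay above both.

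Cyp17a1 lay at 0.34 to 1.51 in LAP-tTA and -1.52 to -0.62 in TRE-met livers, and Apoa4 at up to 4.42 (median 4.08) in LAP-tTA and 2.98 to 3.76 (median 3.29) in TRE-met livers. The adjacent livers lay at 1.49 to 3.64 for Cyp17a1, reaching just into the LAP-tTA range, and at 4.84 to 5.96 for Apoa4, above both. Gna14 lay at -2.79 to -2.19 in LAP-tTA and -0.97 to -0.57 in TRE-met livers, and Sult5a1 at -0.18 to 0.23 in LAP-tTA and 0.41 to 1.76 in TRE-met livers. All adjacent livers lay below these values for both. Gstm5 had 3.04 to 3.95 in LAP-tTA and 0.27 to 0.87 in TRE-met livers, Lrtm1 had -3.05 to -2.37 in LAP-tTA and -1.56 to -0.42 in TRE-met livers, and Cyp3a13, a P450 that was 4.19-fold higher in adjacent liver (SE 0.12, adjusted p = 2.58e-08), 2.50 to 2.80 in LAP-tTA and 0.44 to 2.20 in TRE-met livers. For all genes that divided in this way, MET expression and carriage of LAP-tTA cannot be told apart in adjacent against control liver. Tff3 overlapped between the livers with these 2 titles, at -1.81 to -0.39 in LAP-tTA and -2.02 to -1.29 in TRE-met livers.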

How the data were processed

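RNA of 49 mouse samples was measured on a custom Affymetrix array, and 14 livers at 14 weeks, 7 adjacent and 7 control, were compared. The authors ran RMA over all arrays as one set, and deposited intensity values on a linear, not a log, scale, which span 0.0169 to 143.6 and average 1.0 in each sample. The version of RMA and the step to that mean are not given in the sources used here. Arrays give no depth, and their number limits the precision. No further normalization, filter or constant was used before log2. Of 43681 probe sets, 30342 carried 1 gene symbol in the annotation of the array, 13339 none and 0 several, and 6202 old symbols were replaced with the help of a RefSeq gene table (GRCm38.p6). Where a gene had several probe sets (6081 genes), that of the highest mean over the 14 livers stood for it. Of 2326 genes with a called probe set, 8 had probe sets called in both directions. No 2 samples held identical values.

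Groups came from the sample titles. Each fit used the lmFit and eBayes functions of limma (3.58.1, under R 4.3.3), two-sided, on the groups compared, its p-values adjusted by Benjamini-Hochberg over every probe set. Only the fit of 7 against 7 livers without further terms was checked on simulated data. Met was tested by exact permutation. The rest was done in Python 3.11.15 with pandas 2.3.3, numpy 2.4.6, matplotlib 3.10.9 and scipy 1.17.1. Adjacent and distant liver with the same number came from 1 mouse by their titles, and their differences from the mean of each tissue correlated within a mouse at 0.36 to 0.60, so mouse was a block there and in tumors against adjacent liver. Lists were only counted, beside all genes, and no set test was run.

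The members and the 34 gene lists were chosen with earlier results of these data known. Genes were named by a rule: the 15 largest increases and 15 largest decreases among called genes whose groups did not overlap and that were called without adjacent liver 4, for each list up to 4 members of smallest p, up to 8 genes in each direction called between adjacent and distant liver (there were 0), Met and 11 genes named in the paper, and the 8 genes at which adjacent liver 4 stood farthest from the others. Other members of the lists are examples chosen after their values were seen. Of the 11 genes named in the paper, 1 rose, Cdt1 (0.47, adjusted p = 0.0229), and 0 fell. The alternatives were another threshold, a filter on dim probe sets, median and quantile scaling, all groups in one fit, array weights, the number as a block, 1 probe set per gene, the methods' ANOVA, each liver left out in turn and, added after the data were seen, the Xist term and the 2 Xist classes alone.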

Additional observations from a re-analysis of the deposited data

Results flagged for a closer look

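Adjacent liver 4 stood far from the other adjacent livers at Afp (3.15), Glul (5.35), Lect2 (4.95), Gulo (4.89), Car4 (2.12), Pnliprp1 (2.12), Rhbg (1.73), Axin2 (0.46), Notum (-0.02), Lgr5 (-0.03), Sp5 (-0.26) and Tbx3 (-0.57), all log2 intensities. These are 12 of 21 such distances in 140 groups of 7 livers over 70 genes, where chance gives about 5% of groups, and the 70 genes include some chosen because liver 4 was distant there. Among other adjacent livers, liver 7 was low at Ces1g (0.12) and liver 1 at Hnrnpm (1.21). Control liver 5 was low at Akr1c18 (-3.17) and Igf2 (-2.58) and high at Pnliprp1 (1.81), a pancreatic lipase-related gene, and at Sp5 (-2.05). Control liver 7 was low at Tbx3 (-1.97), and control liver 1 was high at Slc13a3 (-0.80) and low at Cldn2 (2.03).

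The difference between adjacent and control liver was larger among livers with Xist RNA than among livers without it, by the interaction in limma, at 5 named genes. On the log2 scale the gap between both differences was 2.95 for Akr1c18, 2.05 for Scd2, 1.84 for Osbpl3, 1.29 for Oas1g and 1.27 for Golm1. Over all probe sets 44 had a higher and 26 a lower difference among livers with Xist RNA. Only 2 control livers held Xist RNA.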

How the results depend on the processing

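The number of arrays and 1 liver limit these results. Against 3058 called probe sets, 1113 passed an adjusted p under 0.01, 1680 were called among livers with Xist RNA alone and 958 among those without. With adjacent liver 4 left out, 1555 were called among livers with Xist RNA. Leaving out 1 liver in turn gave 1999 (without adjacent liver 6) to 3907 (without adjacent liver 7), and 2376 without adjacent liver 4. Adjacent and control livers with the same number share only that number (their deviations correlated at -0.40 to 0.08, and 0 of 7 correlated best with their own number), and with the replicate number as a block 1619 were called. Between adjacent and distant liver, against 0 called, 2 were called with array medians set equal and 0 to 2 with each mouse left out, the 2 being without mouse 1.

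Of the β-catenin and pericentral genes, 5 fell, against 15 without adjacent liver 4, 10 with all groups in one fit, 9 with the Xist term, 18 with that term and without adjacent liver 4, 2 among livers with Xist RNA and 12 among those without. Adjacent liver 4, whose list mean was 0.96, was among the livers with Xist RNA, and the interaction was called for 0 of the 22 genes. Of the genes of fatty acid synthesis 15 rose, against 9 with all groups in one fit, and 6 and 9 among livers with and without Xist RNA. Of the complement, coagulation and acute phase genes 20 rose, against 13 with all groups in one fit, and 9 and 4 among livers with and without Xist RNA. Of the drug-oxidizing genes 12 fell, against 7 with all groups in one fit. Over all lists 193 members were called, against 126 among livers without Xist RNA. Of 145 named genes 127 were called, against 82 among livers with and 82 among livers without Xist RNA, classes that hold fewer livers. None of the 127 was called in the opposite direction in any of these fits. Genes that were not called could change sign, such as Met, at 0.04 without control liver 1 and -0.07 with array medians set equal. Of the 127, calls were lost for 32 with all groups in one fit, 24 with the replicate number as a block, 8 with array medians set equal, 6 with quantile scaling, 6 with the Xist term, 1 with array weights and 2 to 15 with 1 liver left out. The causes were not tested.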
